A study of Mus musculus with 3 samples.

Results

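The 6 miRNAs described here, miR-142-3p, miR-142-5p, miR-223-3p, miR-146-5p, miR-150-5p and miR-155-5p, are the abundant arms of the precursors Mir142, Mir223, Mir146, Mir150 and Mir155, which are best known from blood cells. Members were the reads that began at the 5′ end of an arm of these 5 precursors and matched it for at least 16 nt. They make up 6 of the 403 miRNA entries counted in the study. The sequenced RNAs, 18 to 30 nt long, came from livers of C57BL/6 mice, an inbred strain, 4 weeks after the animals received scAAV9, an adeno-associated virus with a self-complementary genome. It expressed a Tough Decoy (TuD) against miR-122 in the TuD-miR-122 group, a TuD against let-7 in the TuD-let-7 group, and no TuD in the mock group. A TuD is a hairpin RNA, made in the transduced cell, whose open sites bind the target miRNA and hold it. Vector injection and the interval of 4 weeks were thus shared by all groups, and the sources used here give neither the promoter nor the number of animals behind each library. With 1 library per group, differences between groups have no replicate check, and each interval below is a 95% interval for counting error only.

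A miRNA is cut from a hairpin precursor by Drosha and Dicer, and 1 strand of the resulting duplex is kept by an Argonaute protein. The seed, bases 2 to 8, sets most of the mRNA targets, so a shift of the 5′ end changes the seed. miR-142 is expressed throughout the haematopoietic lineages and is a common marker of leukocyte RNA in solid tissue. miR-223 is richest in neutrophils and monocytes, and miR-150 in mature lymphocytes, where it represses Myb. miR-155 is induced in activated lymphocytes and macrophages, and miR-146a is induced by NF-kB and restrains it by repressing Traf6 and Irak1. In liver, resident macrophages (Kupffer cells), lymphocytes and blood left in the organ are known sources of these miRNAs, and miR-146a is also made by other cell types.

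For 5 of the 6 members a mature sequence was matched in RefSeq (GRCm38.p6). These are shown because each carries another seed, which is printed in capitals.
miR-142a-3p: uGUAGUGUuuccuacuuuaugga
miR-142a-5p: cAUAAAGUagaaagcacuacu
miR-223-3p: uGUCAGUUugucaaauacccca
miR-146a-5p: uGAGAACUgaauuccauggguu
miR-155-5p: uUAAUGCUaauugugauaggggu
The remaining member is miR-150-5p. miR-142a-3p lies at chr11:87756903-87756925 and miR-142a-5p at chr11:87756867-87756887, both on the plus strand. Mir142 (ENSMUSG00000105196.1) lies within an intron of the lincRNA gene Mir142hg, and the annotated Mir142b lies on the opposite strand. miR-223-3p lies at chrX:96242884-96242905 on the plus strand, in an exon of the noncoding gene F630028O10Rik. miR-146a-5p lies at chr11:43374435-43374456 on the minus strand, between genes. miR-155-5p lies at chr16:84714143-84714165 on the plus strand, in an exon of the lincRNA gene Mir155hg. Mir150 (ENSMUSG00000065495.1) lies between genes at chr7:45121757-45121821. The most frequent read start equalled the RefSeq start for all 5 matched members. miR-146b-5p, from another chromosome (chr19:46342790-46342811), has the same seed as miR-146a-5p:
miR-146b-5p: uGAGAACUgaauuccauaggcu

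The libraries held 3681585 reads (TuD-miR-122), 2066892 reads (TuD-let-7) and 3450317 reads (mock), of which 72.0%, 73.1% and 78.5% in that order were assigned to miRNAs. Levels are RPM, read counts scaled to 1000000 miRNA reads that came from neither miR-122 nor let-7 precursors, since the decoys act on those. A floor of 3 reads corresponded to 2.07 RPM in TuD-miR-122, 6.15 RPM in TuD-let-7 and 2.18 RPM in mock. Libraries stood apart in miRNAs of other tissues. The 3 listed skeletal muscle miRNAs summed to 921 RPM in TuD-miR-122 liver and 213 RPM in TuD-let-7, against 9740 RPM in mock. The 4 listed pancreas miRNAs summed to 1613 RPM in TuD-miR-122 liver and 162 RPM in TuD-let-7, against 119 RPM in mock. TuD-let-7 also had 24.2% of non-target miRNA reads with 1 substitution, against 10.1% in TuD-miR-122 liver and 9.28% in mock. The part of these differences in the results below was not tested, and values between the 2 decoy libraries, without mock, are given beside them.

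The 6 members together made up 1.28% of the non-target miRNA reads in TuD-miR-122, 1.07% in TuD-let-7 and 1.35% in mock, from 18595, 5205 and 18604 reads in that order. miR-142-3p was the most abundant of them in every library and ranked 30 among 383 non-target miRNAs in each. It had 9527 reads (6560 RPM) in TuD-miR-122, 2659 reads (5452 RPM) in TuD-let-7 and 9985 reads (7248 RPM) in mock. The plot of levels by library shows a span of over 100-fold between this miRNA and the rarest member.

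miR-146-5p was next in every library. Its level was 3483 RPM (5059 reads) in TuD-miR-122, 3480 RPM (1697 reads) in TuD-let-7 and 3482 RPM (4797 reads) in mock. These values lie within counting error of each other. miR-142-5p had 1553 RPM (2255 reads) in TuD-miR-122, 859 RPM (419 reads) in TuD-let-7 and 1203 RPM (1657 reads) in mock. miR-223-3p had 1062 RPM (1542 reads) in TuD-miR-122, 802 RPM (391 reads) in TuD-let-7 and 1428 RPM (1968 reads) in mock. miR-142-5p and miR-223-3p changed places between libraries. In TuD-miR-122, miR-142-5p had 1.46 times the reads of miR-223-3p (1.37 to 1.56), while in mock miR-223-3p had 1.19 times those of miR-142-5p (1.11 to 1.27). In TuD-let-7 the interval of their ratio, 0.931 to 1.23, included 1.

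The lymphocyte miRNA miR-150-5p and the activation-induced miR-155-5p were rare. miR-150-5p had 125 reads (86.1 RPM) in TuD-miR-122, 23 reads (47.2 RPM) in TuD-let-7 and 93 reads (67.5 RPM) in mock. miR-155-5p had 87 reads (59.9 RPM) in TuD-miR-122, 16 reads (32.8 RPM) in TuD-let-7 and 104 reads (75.5 RPM) in mock. Their order could not be told from counting error in TuD-let-7 or mock, while in TuD-miR-122 miR-150-5p had 1.44 times the reads of miR-155-5p (1.08 to 1.91).

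**Figure D1:**
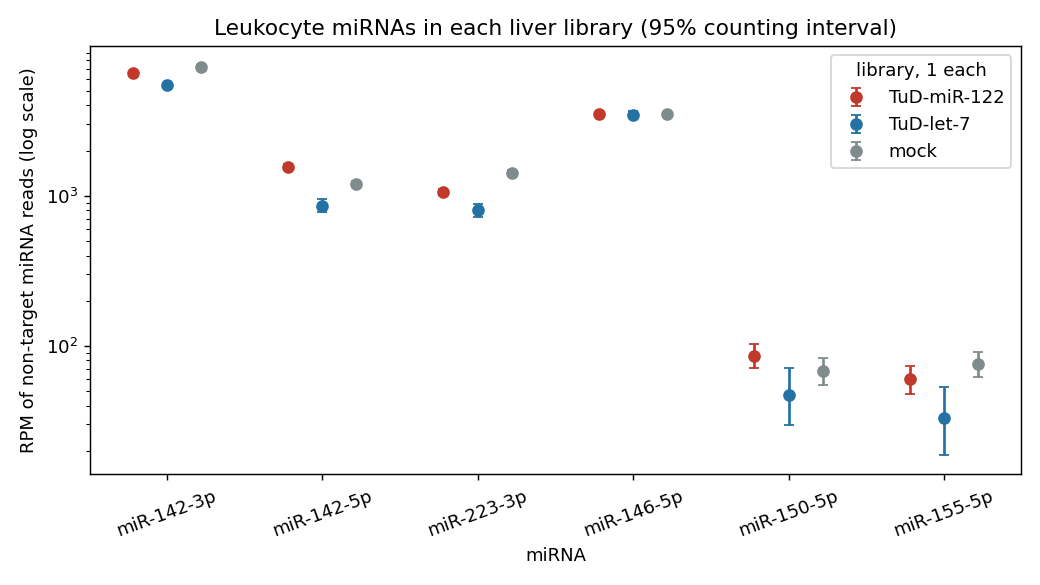
Level of each of the 6 miRNAs (RPM of non-target miRNA reads, log axis) in the TuD-miR-122, TuD-let-7 and mock libraries, 1 library each, with the 95% counting interval. miR-142-3p is highest throughout, miR-146-5p lies at 3483, 3480 and 3482 RPM, and miR-150-5p and miR-155-5p lie under 100 RPM.

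The opposite arms of the 4 precursors other than Mir142 were near or below the floor. miR-223-5p had 7 reads in TuD-miR-122, 1 in TuD-let-7 and 13 in mock, so miR-223-3p had 220 times (107 to 549), 391 times (69.8 to 15483) and 151 times (88.3 to 285) as many reads. miR-146-3p had 4 reads in TuD-miR-122, 3 in TuD-let-7 and 6 in mock. An entry needed 10 untailed reads at 1 start, over the 3 libraries together, and neither 3p arm of Mir150 or Mir155 had them. Over all starts, untailed reads of miR-150-3p numbered 5 in TuD-miR-122, 3 in TuD-let-7 and 2 in mock, and miR-155-3p had 0 in each library.

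Mir142 was the exception, with both arms abundant. miR-142-3p had 4.22 reads per read of miR-142-5p in TuD-miR-122 (4.03 to 4.43), 6.35 in TuD-let-7 (5.72 to 7.05) and 6.03 in mock (5.72 to 6.35). The TuD-miR-122 value lies below both others with no overlap of intervals, and the TuD-let-7 and mock intervals overlap. Since both arms come from 1 hairpin and are counted in 1 library, this ratio does not depend on how libraries are scaled. Counting all starts within 3 nt, it was 3.50 in TuD-miR-122 (3.37 to 3.64), 5.13 in TuD-let-7 (4.71 to 5.59) and 4.53 in mock (4.34 to 4.73). The library order was the same with all starts. Reads lost to substitutions still enter this ratio. In TuD-let-7, 11.8% of miR-142-3p and 22.2% of miR-142-5p reads had 1 substitution, against 6.51% and 9.05% in mock. A ratio between precursors is likewise free of scaling: miR-142-3p had 6.18 reads per miR-223-3p read in TuD-miR-122 (5.85 to 6.52), 6.80 in TuD-let-7 (6.11 to 7.58) and 5.07 in mock (4.83 to 5.33). Per miR-146-5p read it had 1.88 reads in TuD-miR-122 (1.82 to 1.95), 1.57 in TuD-let-7 (1.47 to 1.67) and 2.08 in mock (2.01 to 2.15).

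In TuD-miR-122 relative to mock, none of the 6 members differed by 2-fold. A miRNA with at least 100 reads over both libraries was called when the interval of its ratio lay wholly above 2 or below 0.5. By that rule 0 of 6 members were called, against 42 of 227 non-target miRNAs, or 18.5%, of which 13.7% were called higher and 4.85% lower. The ratio of TuD-miR-122 to mock was 0.905 for miR-142-3p (0.88 to 0.931), so the more abundant Mir142 arm was lower. It was 1.29 for miR-142-5p (1.21 to 1.38), so the other arm of the same hairpin was higher. It was 0.743 for miR-223-3p (0.695 to 0.795), the lowest of the 6, with 43 of the 227 tested miRNAs lower still. Intervals included 1 for miR-146-5p (ratio 1.0, 0.961 to 1.04), miR-150-5p (1.27, 0.967 to 1.69) and miR-155-5p (0.794, 0.590 to 1.07). Thus 1 member had an interval wholly above 1 and 2 wholly below it. Over all tested non-target miRNAs, 36.1% had intervals above 1 and 37.4% below. The median ratio was 0.952 over the members and 0.985 over all tested miRNAs (log2 -0.072 and -0.021). In bulk liver RNA, fewer cells of a type and less RNA per cell cannot be told apart.

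In TuD-let-7 relative to mock, 4 members lay below mock beyond counting error, the largest gaps being those of miR-155-5p and miR-223-3p. The ratio of TuD-let-7 to mock was 0.752 for miR-142-3p (0.721 to 0.785) and 0.714 for miR-142-5p (0.640 to 0.796), so both arms of Mir142 lay lower, with overlapping intervals. It was 0.561 for miR-223-3p (0.502 to 0.626), with 21 of 193 tested non-target miRNAs lower still. It was 0.435 for miR-155-5p (0.240 to 0.740), from 16 reads against 104, with 10 of 193 lower still. The interval of miR-150-5p (0.699, 0.422 to 1.11) included 1, as did that of miR-146-5p (0.999, 0.945 to 1.06). By the 2-fold rule 0 of 6 members were called, against 15 of 193 non-target miRNAs, or 7.77% (3.63% higher and 4.15% lower). Intervals wholly below 1 were found for 4 of 6 members and for 34.7% of all tested miRNAs. The median ratio was 0.713 over the members and 0.983 over all tested miRNAs (log2 -0.49 and -0.024). These counts leave out reads with a mismatch in the first 16 nt. In TuD-let-7, 1 substitution in the first 21 nt was found in 11.8% of miR-142-3p and 22.2% of miR-142-5p reads. Over all non-target miRNAs it was 24.2%. The ratios of the 2 arms thus depend in part on how many reads each lost.

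The size of the TuD-let-7 differences depended on the scaling. Scaling to all reads of the library shifted every log2 ratio by -0.76, and scaling to all miRNA reads by -0.66. With all reads, 4 of 6 members were called lower: miR-142-3p at 0.445, miR-142-5p at 0.422, miR-223-3p at 0.332 and miR-155-5p at 0.257, beside 21.8% of all tested miRNAs called. miR-146-5p was then at 0.591 (0.558 to 0.624). With all miRNA reads, miR-142-3p, miR-223-3p and miR-155-5p were called lower, beside 19.7% of all tested miRNAs. Over all non-target miRNAs, 4 were called higher and 38 lower with all reads, and 4 higher and 34 lower with all miRNA reads, against 7 higher and 8 lower on the scale used here. The order of the members and the gap between miR-146-5p and the other 5 do not depend on scaling. For TuD-miR-122, scaling to all miRNA reads shifted every log2 ratio by 0.11, whereupon the interval of miR-142-3p (0.947 to 1.0) included 1 and those of miR-146-5p (1.04 to 1.12) and miR-150-5p (1.04 to 1.82) did not.

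**Figure D2:**
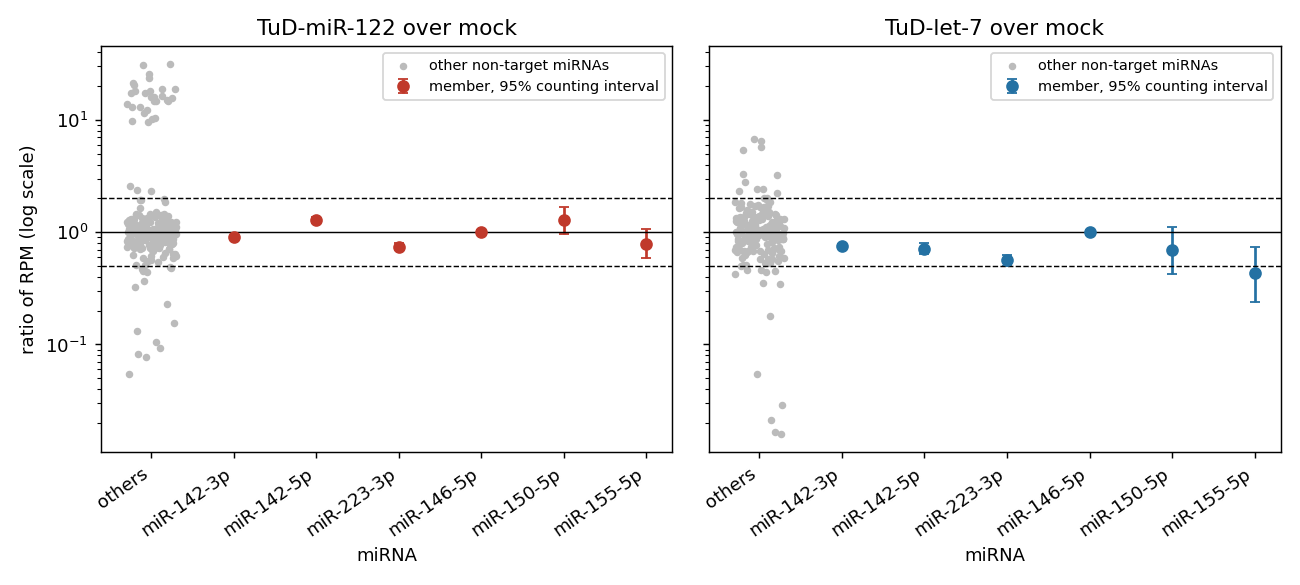
Ratio of RPM in TuD-miR-122 over mock (left) and TuD-let-7 over mock (right), log axis, for the 6 miRNAs with 95% counting intervals and, in grey, for the other tested non-target miRNAs. Lines mark ratios of 0.5, 1 and 2. In the left panel the members lie between 0.743 and 1.29; in the right panel between 0.435 and 0.999, with miR-146-5p at the top.

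Both comparisons above share the mock library. Between the decoy libraries, the ratio of TuD-miR-122 to TuD-let-7 was 1.20 for miR-142-3p (1.15 to 1.26), 1.81 for miR-142-5p (1.63 to 2.01) and 1.32 for miR-223-3p (1.18 to 1.48). It was 1.82 for miR-150-5p (1.16 to 2.98) and 1.83 for miR-155-5p (1.06 to 3.33). Of the 6 members, 5 had an interval wholly above 1, beside 42.7% of the 213 tested miRNAs, and miR-146-5p, at 1.0 (0.947 to 1.06), did not. None was called by the 2-fold rule, beside 20.2% of tested miRNAs (17.4% higher and 2.82% lower). Scaling to all reads or to all miRNA reads shifted these log2 ratios by 0.74 and 0.76. The calls over all miRNAs were then 64 and 66 higher and 1 lower each, against 37 higher and 6 lower. miR-142-5p was called higher under both scalings, and miR-223-3p under the second.

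Summed over the 6 members, the level was 12803 RPM in TuD-miR-122 liver and 10673 RPM in TuD-let-7, against 13504 RPM in mock. The ratio to mock was 0.948 (0.929 to 0.968) for TuD-miR-122 and 0.790 (0.766 to 0.815) for TuD-let-7. Without miR-146-5p these ratios were 0.930 (0.908 to 0.952) and 0.718 (0.691 to 0.745).

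miRNAs that mark other cell types also moved between the libraries, none of them at 0 in any. The 4 erythroid miRNAs, led by miR-451a, summed to 48685 RPM in TuD-miR-122 liver and 30990 RPM in TuD-let-7, against 34629 RPM in mock. All 4 had ratios above 1 in TuD-miR-122 (1.39 to 1.5) and below 1 in TuD-let-7 (0.665 to 0.924). The 3 hepatocyte miRNAs (miR-192-5p, miR-194-5p and miR-148a-3p) summed to 100504 RPM in TuD-miR-122 liver and 142536 RPM in TuD-let-7, against 120084 RPM in mock. All 3 lay below mock in TuD-miR-122 liver. In TuD-let-7 they differed in direction, with ratios to mock of 1.35 for miR-194-5p, 1.02 for miR-192-5p and 0.864 for miR-148a-3p. The 2 endothelial arms of miR-126a had summed ratios of 1.21 in TuD-miR-122 liver and 0.925 in TuD-let-7, where miR-126a-3p was at 1.08 and miR-126a-5p at 0.594. The 5 stromal miRNAs had summed ratios of 1.17 and 1.15 in the same order. Their own ratios ran from 0.831 to 1.64 in TuD-miR-122 liver and from 0.575 to 1.26 in TuD-let-7, and in TuD-let-7 the median was 0.983 and the most abundant, miR-143-3p, was at 1.26. The part of these cell types in the differences of the leukocyte miRNAs was not tested.

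A wider list of 17 miRNAs known from immune cells was counted beside the members, and 14 of them had an entry. In TuD-miR-122, 7 had enough reads, 0 were called, and their ratios to mock ran from 0.736 to 1.32 with a median of 1.08. In TuD-let-7, 6 had enough reads, 0 were called, and ratios ran from 0.705 to 1.51 with a median of 1.07. The most abundant was miR-181a-5p, known from thymocytes, at 1081 RPM in TuD-miR-122, 1275 RPM in TuD-let-7 and 1300 RPM in mock. miR-652-3p had 622 RPM in TuD-miR-122, 1097 RPM in TuD-let-7 and 728 RPM in mock. It was thus higher in TuD-let-7 (ratio 1.51, 1.35 to 1.68). miR-511-3p, which lies in the macrophage gene Mrc1, had 516 RPM in TuD-miR-122, 531 RPM in TuD-let-7 and 424 RPM in mock, and was higher than mock in both. miR-342-3p, which lies in Evl, had 433 RPM in TuD-miR-122, 283 RPM in TuD-let-7 and 401 RPM in mock, with a TuD-let-7 ratio of 0.705 (0.581 to 0.851). miR-146b-5p, which shares the seed of miR-146a-5p, had 107 reads in TuD-miR-122, 18 in TuD-let-7 and 77 in mock, so that miR-146-5p outnumbered it by 47.3, 94.3 and 62.3 times in that order.

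Among 48 miRNA arms with at least 1000 reads in each of the 3 libraries, the pattern most like that of miR-142-3p was that of miR-27b-3p. Likeness was the Euclidean distance over the log2 ratios of TuD-miR-122 to mock and of TuD-let-7 to mock, which share mock. The distance was 0.068 for miR-27b-3p (ratios 0.865 and 0.742), 0.19 for miR-26a-1-5p, and 0.25 each for miR-148a-3p, miR-15a-5p and miR-21a-5p, against a median of 0.64. miR-146-5p was at 0.43, rank 15.

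The 5′ starts of the Mir142 arms varied in all libraries. Reads of miR-142-3p began at the main start in 81.6% of cases in TuD-miR-122, 81.3% in TuD-let-7 and 84.2% in mock. No read began in the 3 nt before it, and the rest began 1, 2 or 3 nt later. Start shares, here and below, are of reads that began within 3 nt of the main start. Starts farther away were not counted. The forms that end at the last base of miR-142-3p show how the seed, in capitals, moves with the start; bases are as read in cDNA.
miR-142-3p, main start: tGTAGTGTttcctactttatgga
miR-142-3p, 1 nt later: gTAGTGTTtcctactttatgga
miR-142-3p, 2 nt later: tAGTGTTTcctactttatgga
miR-142-3p, 3 nt later: aGTGTTTCctactttatgga
The start 1 nt later held 4.48% of the arm's reads in TuD-miR-122 liver and 4.86% in TuD-let-7, against 3.10% in mock, so it was higher than mock by 1.37 points (0.881 to 1.87) and 1.76 points (0.973 to 2.61). The start 2 nt later held 7.48% in TuD-miR-122, 7.34% in TuD-let-7 and 7.54% in mock, within counting error of each other. The start 3 nt later held 6.46% in TuD-miR-122 liver and 6.51% in TuD-let-7, against 5.12% in mock. For this start the intervals of both differences from mock, 0.734 to 1.94 and 0.472 to 2.37 points, excluded 0.

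miR-142-5p had a more frequent second start, 2 nt upstream, which adds 2 precursor bases and gives a form with another seed.
miR-142-5p, 2 nt earlier: cCCATAAAgtagaaagcactac
miR-142-5p, main start: cATAAAGTagaaagcactact
miR-142-5p, 1 nt later: aTAAAGTAgaaagcactact
The earlier start held 21% of the arm's reads in TuD-miR-122 (700 of 3337) and 21.5% in TuD-let-7 (137 of 638), against 26.2% in mock (686 of 2618). It was lower than mock by a difference of -5.23 points (-7.43 to -3.03) in TuD-miR-122 liver and -4.73 points (-8.30 to -0.95) in TuD-let-7. The main start held 67.6% in TuD-miR-122, 65.7% in TuD-let-7 and 63.3% in mock, and the start 1 nt later 9.62%, 11% and 8.59% in the same order. In RPM the earlier start stood at 482 in TuD-miR-122, 281 in TuD-let-7 and 498 in mock. Its RPM in TuD-miR-122 was thus close to that in mock, while the main start had 1.29 times the mock level. The 3′ end went with the start: reads of the main start mostly ended after nt 21 without a tail (72.2% in TuD-miR-122, 78.3% in TuD-let-7 and 73.9% in mock). Those of the earlier start ended, counted from the main start, after nt 18 (37% in TuD-miR-122, 27% in TuD-let-7 and 29.6% in mock) or nt 20 (35.7%, 29.2% and 41.8%).

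**Figure D3:**
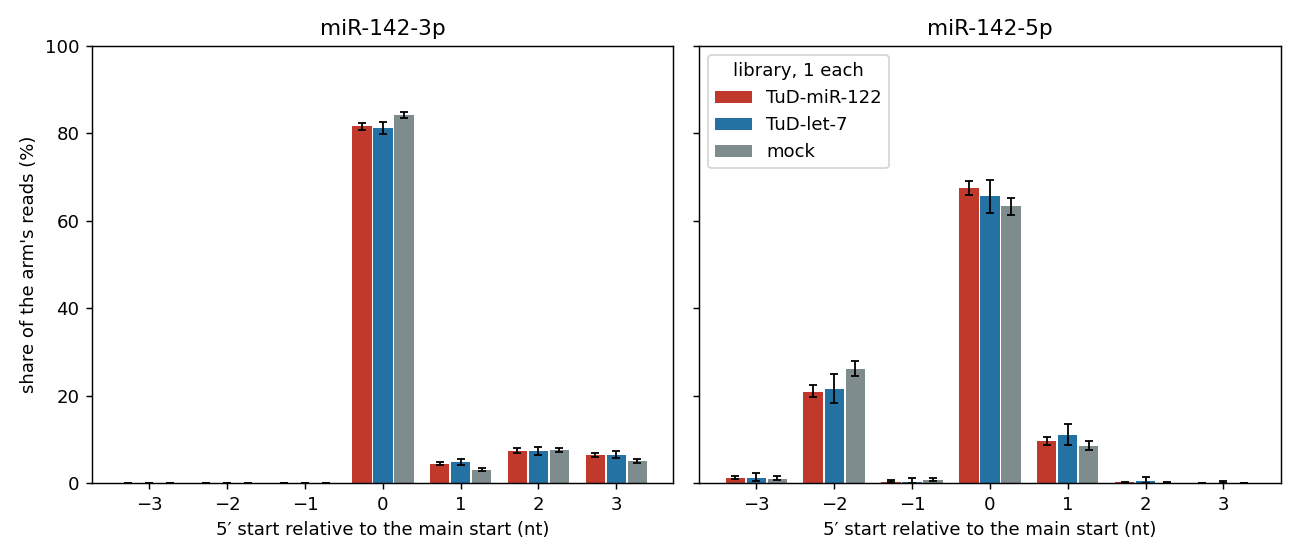
Share of reads (%) by 5′ start, in nt from the main start, for miR-142-3p (left) and miR-142-5p (right) in the TuD-miR-122, TuD-let-7 and mock libraries, with exact 95% intervals. Shares are of reads that began within 3 nt of the main start. miR-142-3p has starts 1 to 3 nt later, and miR-142-5p a start 2 nt earlier that holds 21%, 21.5% and 26.2% of reads.

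The other members started more uniformly. miR-223-3p began 1 nt later in 10.4% of reads in TuD-miR-122, 10.02% in TuD-let-7 and 10.5% in mock. miR-146-5p began at its main start in 97.8% of reads in TuD-miR-122, 98.0% in TuD-let-7 and 97.9% in mock.

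Starts of miR-142-3p also differed in their 3′ ends. A tail is a mismatched 3′ end of up to 5 nt, which includes base-call errors. At the main start 10.8% of reads were tailed in TuD-miR-122, 13.3% in TuD-let-7 and 6.96% in mock. At the start 2 nt later the tailed share was 44.4% in TuD-miR-122, 44.2% in TuD-let-7 and 45.4% in mock, and at the start 3 nt later 37.1%, 39.9% and 44.3%. Both of these starts were thus tailed several times as often as the main start within each library, with no overlap of intervals. At the start 1 nt later the share was 12.4% in TuD-miR-122 (9.72 to 15.6), where the interval overlapped that of the main start (10.2 to 11.5), 27.7% in TuD-let-7 and 16.8% in mock. The most frequent tailed form of the start 2 nt later was 1 A added after nt 23, at 33.8% of that start's reads in TuD-miR-122, 20.4% in TuD-let-7 and 29.6% in mock. For the start 3 nt later it was 1 T after nt 24, at 18.0%, 9.86% and 21.4%.

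Members differed among themselves in how often and with which base they were tailed, more than libraries differed for most of them. The 2 Mir142 arms were tailed least: miR-142-5p in 6.52% of reads in TuD-miR-122, 3.82% in TuD-let-7 and 5.37% in mock. miR-223-3p was tailed in 36.7% of reads in TuD-miR-122, 34.3% in TuD-let-7 and 34.1% in mock, and T was its usual tail base (only T in 18.3%, 17.4% and 17.9% of reads). miR-146-5p was tailed in 37.3% of reads in TuD-miR-122, 50.5% in TuD-let-7 and 38.5% in mock, and its tails of only T were alike (29.5%, 28.4% and 31.9%). miR-150-5p carried mostly A, with tails of only A in 21.6% of reads in TuD-miR-122, 26.1% in TuD-let-7 and 30.1% in mock. miR-155-5p carried tails of only A in 33.3% of reads in TuD-miR-122 liver and 26.9% in mock; in TuD-let-7 it was 1 of 16 reads. The T-rich tails of miR-223-3p and miR-146-5p and the A-rich tails of miR-150-5p were present in all 3 libraries.

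**Figure D4:**
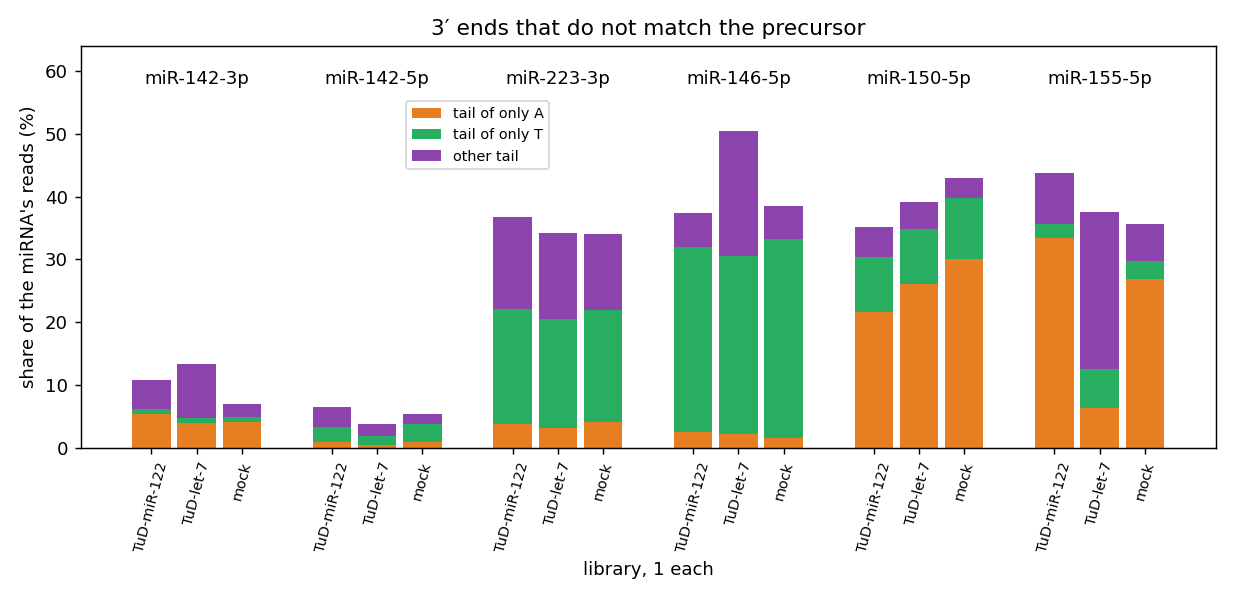
Share of each miRNA's reads (%) with a tail of only A, only T or any other sequence, in the TuD-miR-122, TuD-let-7 and mock libraries, stacked. T tails dominate in miR-223-3p and miR-146-5p and A tails in miR-150-5p; the other tails of miR-146-5p reach 19.98% in TuD-let-7, against 5.36% in TuD-miR-122 liver and 5.15% in mock.

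Over the reads of all 6 members, 19.97% were tailed in TuD-miR-122 liver and 26.4% in TuD-let-7, against 18.2% in mock. The difference from mock was 1.82 points (1.01 to 2.62) in TuD-miR-122, beside a median of -0.95 points over the 74 non-target miRNAs for which each library had 1000 reads or more. It was 8.26 points in TuD-let-7, beside a median of 2.69 points over 49 such miRNAs. Those medians are over differences of single miRNAs, while the member values pool reads. With the 6 members weighted equally, the difference was 1.13 points in TuD-miR-122 liver and 2.50 points in TuD-let-7. That mean weights miR-150-5p and miR-155-5p, with 23 and 16 reads in TuD-let-7, as much as the others. Pooled over reads and counting only tails of A, the difference was 0.74 points in TuD-miR-122 liver and -0.27 points in TuD-let-7. Counting only tails of T, it was -0.47 and 0.33 points. Without miR-146-5p, the pooled difference for all tails was 2.39 points in TuD-miR-122 liver and 3.67 points in TuD-let-7.

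Trimmed reads, whose matching part was under 21 nt, made up 5.80% of member reads in TuD-miR-122 liver and 12.3% in TuD-let-7, against 4.12% in mock. The difference from mock was 1.68 points (1.24 to 2.13) in TuD-miR-122 liver and 8.17 points in TuD-let-7, where it was 4.28 points without miR-146-5p. Beside these pooled values, the medians over single non-target miRNAs were -0.19 points in TuD-miR-122 liver and 2.73 points in TuD-let-7. In TuD-miR-122, miR-223-3p stood out with 15.6% of reads trimmed, against 12.1% in mock. That difference of 3.42 points (1.08 to 5.79) was the highest of the 74 miRNAs, whose median was -0.19. Its trimmed and tailed reads made up 10.8% in TuD-miR-122 against 7.62% in mock, and its trimmed reads without a tail 4.73% against 4.52%. Reads with a mismatch at nt 21 count as trimmed and tailed. Along the first 21 nt, 5.92% of miR-223-3p reads in TuD-miR-122 differed at nt 21 only, against 3.68% in mock. A misread base and an added base cannot be told apart there by this count. miR-142-3p was trimmed in 3.08% of reads in TuD-miR-122 liver and 7.48% in TuD-let-7, against 1.51% in mock, and nearly all of these reads were tailed. miR-142-5p, whose usual length is 21 nt, was trimmed in 16.8% of reads in TuD-miR-122, 11.9% in TuD-let-7 and 14.5% in mock.

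miR-146-5p had the highest difference in trimming of all 49 miRNAs in TuD-let-7. It was trimmed in 19.3% of reads in TuD-let-7 and 2.98% in TuD-miR-122, against 2.63% in mock, a TuD-let-7 difference of 16.6 points (14.7 to 18.7) beside a median of 2.73. Trimmed reads without a tail were 0.530% in TuD-let-7 and 0.688% in mock, so the difference lay in reads counted as trimmed and tailed (18.7% against 1.94%). The commonest of these reads differed from the miRNA by 1 base, in capitals in the second line, while the third line shows the usual form with 1 added T, in capitals.
miR-146-5p, exact: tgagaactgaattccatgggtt
miR-146-5p, G19T: tgagaactgaattccatgTgtt
miR-146-5p, 1 T added: tgagaactgaattccatgggttT
The exact form had 2366 reads in TuD-miR-122, 622 in TuD-let-7 and 2334 in mock. The substituted form had 2 reads in TuD-miR-122, 129 in TuD-let-7 and 9 in mock. The form with 1 added T had 1280, 410 and 1332 reads in that order. Allowing 1 mismatch followed by at least 2 matching nt, trimmed reads of miR-146-5p were 5.62% in TuD-let-7 against 2.10% in mock, and its tailed reads 41.8% against 38.2%. Over the pooled reads of the 6 members the TuD-let-7 difference was then 2.78 points for trimming and 5.15 points for tailing. The medians over 52 single non-target miRNAs, counted alike, were 2.04 and 1.77 points.

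Single substitutions were therefore counted along the first 21 nt of each member, written as the precursor base, the position from 1 at the 5′ end, and the base read. In TuD-let-7, G19T was found in 16.9% of miR-146-5p reads (15.1 to 18.8; 278 of 1648), against 0.102% in TuD-miR-122 liver and 0.405% in mock. The same library had G4T in 7.93% and A6C in 8.48% of miR-146-5p reads, against 1.37% and 1.66% in mock. These changes were not particular to miR-146-5p. Over all non-target miRNAs with G at that position, G19T made up 10.6% of reads in TuD-let-7, 0.168% in TuD-miR-122 liver and 0.251% in mock, and its median over 18 miRNAs with at least 1000 reads was 11.4% in TuD-let-7. miR-142-5p had A2C in 5.14%, A6C in 6.11% and G10T in 6.35% of its TuD-let-7 reads. G10T was at 7.26% in miR-223-3p in TuD-let-7, against 1.54% in mock, and 7.76% over all non-target miRNAs in TuD-let-7. miR-142-3p had G21T in 5.96% of reads in TuD-let-7, against 0.151% in TuD-miR-122 liver and 0.142% in mock. TuD-miR-122 had changes of its own at lower shares, such as G14T in 2.24% of miR-142-5p reads, against 0.422% in mock. A19C was in 1.60% of miR-142-3p reads in TuD-miR-122, against 0.395% in mock. Over all non-target miRNAs A19C was at 3.02% and 0.784% in that order.

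Starts of miR-142-3p place the same precursor base at different read positions. The A at position 4 of the main start was read as C in 0.162% of main-start reads in TuD-let-7 (4 of 2464). In reads that began 2 nt later, where that base is at read position 2, A2C was found in 5.85% (12 of 205; 3.06 to 10.002). The intervals do not overlap, and A2C over all non-target miRNAs was at 5.10% in TuD-let-7 against 0.0184% in mock. Other changes had lower shares where the start moved the base. miR-142-5p A6C was in 24 of 393 main-start reads in TuD-let-7, but in 1 of 78 at read position 8. Its A2C was in 20 of 389 reads, but in 0 of 77 at read position 4. miR-223-3p G10T was in 26 of 358 reads, but in 0 of 40 at read position 9. The intervals of these pairs overlap, as shifted reads were few. Intervals of some other pairs did not overlap. miR-142-3p G21T was in 156 of 2616 main-start reads in TuD-let-7 (5.09% to 6.94%). That G was read as T in 0 of 80 at read position 18 (0% to 4.51%), but in 17 of 210 at read position 19. The A at position 19 was read as C in 4 of 2464 reads, but in 6 of 199 at read position 17. The A at position 19 of miR-142-5p was read as C in 0 of 369 reads, but in 9 of 86 at read position 21. A further change, with 5 shifted reads, had a like share at both read positions. The G at position 10 of miR-142-5p was read as T in 6.35% of main-start reads in TuD-let-7 (25 of 394; 4.15 to 9.22). It was read as T in 6.10% (5 of 82; 2.01 to 13.7) of reads that began 2 nt earlier, where it is at read position 12. A-to-G changes of any position were rare: 1.43% of miR-142-5p reads in TuD-miR-122, 1.48% in TuD-let-7 and 1.54% in mock, and 0.469%, 0.251% and 0.608% of miR-142-3p reads.

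In all, 8.86% of miR-146-5p reads had 1 substitution in TuD-miR-122 liver and 33.3% in TuD-let-7, against 9.60% in mock. For miR-142-3p it was 7.84% in TuD-miR-122 liver and 11.8% in TuD-let-7, against 6.51% in mock. For miR-142-5p it was 10.6% and 22.2%, against 9.05% in mock, and for miR-223-3p 14.9% and 22.1%, against 12.7% in mock. Each of these 4 members was thus highest in TuD-let-7. Such reads are left out of the levels above or counted as tailed. With 1 mismatch allowed in the counting, the median log2 ratio of the 6 members in TuD-let-7 was -0.66.

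**Figure D5:**
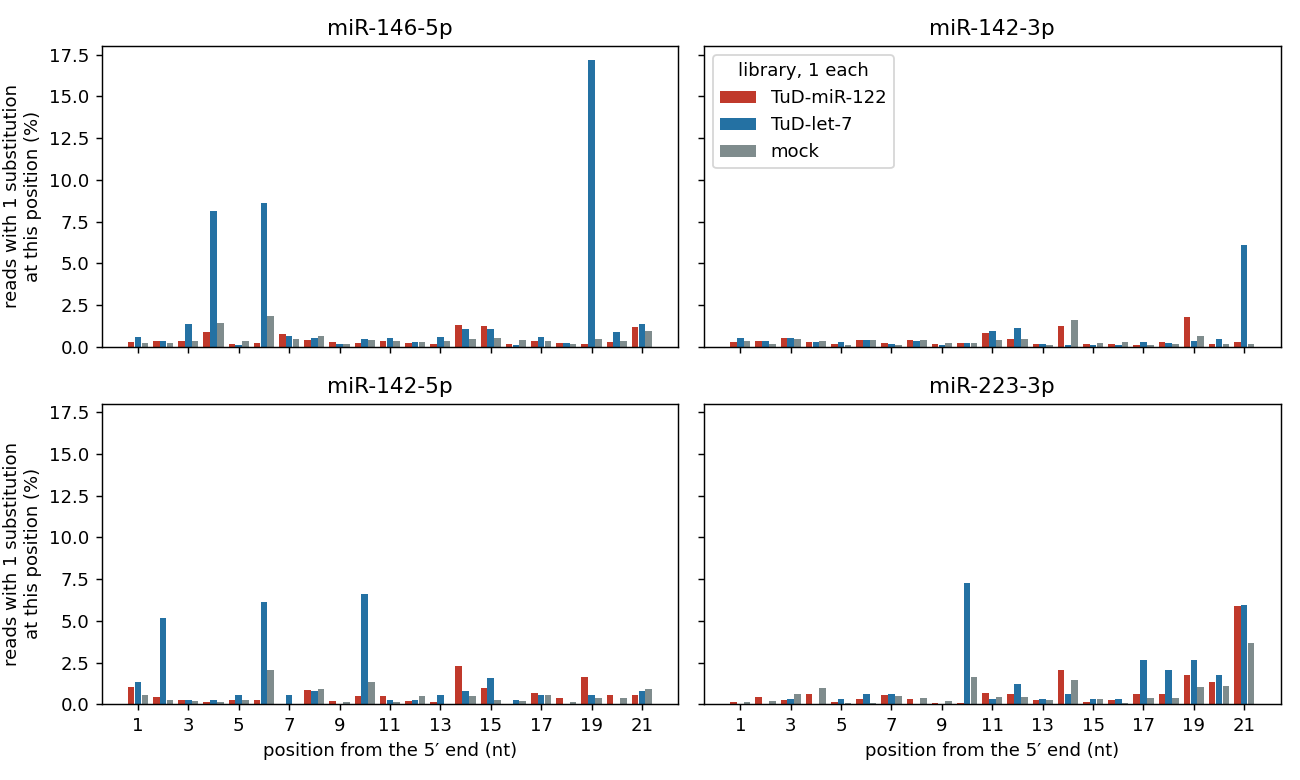
Share of reads (%) with 1 substitution at each of the first 21 positions of miR-146-5p, miR-142-3p, miR-142-5p and miR-223-3p in the TuD-miR-122, TuD-let-7 and mock libraries. TuD-let-7 bars stand out at positions 4, 6 and 19 of miR-146-5p, 21 of miR-142-3p, 2, 6 and 10 of miR-142-5p, and 10 of miR-223-3p.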

How the data were processed

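Each of the 3 deposited files lists the distinct inserts of 1 library, 15 to 30 nt long, with raw read counts; per the labels' protocols, liver RNA was extracted with mirVana and RNAs of 18 to 30 nt were gel-purified. The sources used here do not describe adapter removal or filters by the authors. No molecular identifiers are present, so PCR copies count as separate reads.

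Reads were compared with the 1174 miRNA precursors of GENCODE mouse release 21 (GRCm38) in Python 3.11. The 5′ end of each arm was its most frequent untailed start, for arms with at least 10 reads, which gave 457 arms and, merged where the first 22 nt agree, 403 entries, 383 of them from neither miR-122 nor let-7. A read needed that start and at least 16 matching nt; up to 5 further nt were a tail. Reads shared between entries (0.327% to 0.347% of miRNA reads) were left out, and single reads can pass between miR-146-5p and miR-146b-5p through sequencing errors.

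Ratios carry exact conditional-binomial intervals and shares exact Clopper-Pearson intervals, at 95%. No test between conditions was possible with 1 library per group. Log2 medians used 0.5 reads added. The members, the lists and the rules for naming miRNAs (the members and their opposite arms, the 4 most abundant of the wider list, 5 nearest by pattern, up to 2 per marker list) were chosen with earlier results of these data known. miR-146b-5p, which shares the seed of miR-146a-5p, was named outside these rules. Alternatives covered scaling, starts, matching, read minimums, and definitions of tail and trimming. The code was tested on simulated data.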

Additional observations from a re-analysis of the deposited data

How the results depend on the processing

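With 1 library per group no replicate could be left out, and no setting tests the differences between animals or preparations. No paired analysis was possible because each group has 1 library. In TuD-miR-122 against mock, 0 members were called under every setting, and the median log2 ratio (-0.072) was 0.035 with all miRNA reads as the scale. The tailed difference (1.82 points) was 0.74 with tails of only A and -0.47 with tails of only T. The trimmed difference (1.68 points) was 1.14 with trimming below 20 nt, 2.30 with trimming set 2 nt below each miRNA's usual length and 2.21 without miR-146-5p. In TuD-let-7 against mock, the count called (0) was 4 with all reads, 3 with all miRNA reads and 1, miR-155-5p, by the point ratio alone, beside 14.5% of all tested miRNAs by that rule. The median log2 ratio (-0.49) was -1.25 with all reads, -1.15 with all miRNA reads and -0.66 with 1 mismatch allowed. The tailed difference (8.26 points) was 2.50 with members weighted equally, 3.12 with tails of at most 2 nt, -0.27 with only A, 0.33 with only T, 5.15 with 1 mismatch followed by at least 2 nt and 3.67 without miR-146-5p. The trimmed difference (8.17 points) was 7.22 with members weighted equally, 5.05 below 20 nt, 2.78 with 1 mismatch followed by at least 2 nt and 4.28 without miR-146-5p. The last 2 kinds of setting were chosen after seeing the data. Scalings multiply every ratio by 1 factor, and the cause of the other shifts was not tested. Of 42 single-member ratios per comparison, 6 (TuD-miR-122) and 10 (TuD-let-7) moved beyond their interval. Ratios of miR-146-5p, at 1.0 and 0.999, lay on the other side of 1 in 6 and 2 settings in that order, and those of the other 5 members in 0. Depth limits miR-150-5p and miR-155-5p, with 23 and 16 reads in TuD-let-7.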
